A study of Mus musculus with 6 samples.

Results

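In the ChIRP-seq peak list of the E 11 mouse limb, 111 of 2880 peaks overlapped a peak called in a glial cell line by at least 1 bp. These 111 limb peaks and the 104 of 2919 glial peaks they overlapped formed 116 overlapping pairs, and they are the subject of what follows. They were chosen by their presence in both lists, without a limit on score, so the counts and scores below describe them and carry no test. The shared peaks made up 3.85% of the limb list (95% Wilson interval 3.21 to 4.62, counting error only) and 3.56% of the glial list (2.95 to 4.30). Classes were set by sequence or by position. Satellite repeats, a ribosomal DNA-like locus, the mitochondrial chromosome, chromosome Y and a segment of chromosome 11 around *Sfi1* held 65 of the 111 limb peaks, or 58.6%. The satellite and chromosome 11 classes were defined from shared peaks, so this share is partly set by the definition. It was not counted for the whole limb list. The locus of *LncRNA-HIT* itself, against which the probes were designed, gave 1 more, and the remaining 45 lay elsewhere, 12 of them over short tandem arrays.

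ChIRP uses biotin-tagged DNA oligonucleotides complementary to an RNA to pull down the chromatin to which that RNA is attached. Here 25 probes against *LncRNA-HIT* (also called Hotchon) formed odd and even sets, which were hybridized apart to chromatin from the distal limb bud of E 11 Swiss Webster embryos and on chromatin from a murine glial cell line that does not express this RNA. Odd, even and input libraries of both tissues made 6 in all, and each tissue has 1 peak list made from its merged odd and even tracks, so there were no replicates and no value below carries a replicate error. The limb material was pooled from many limb buds, and the labels of the glial samples name whole embryonic brain of Swiss Webster mice and the limb's stage, while their protocol describes a cell line from a later stage. The strength of a peak is given as −log10(p), the negative logarithm of the p-value that the authors' peak caller MACS assigned against input. Read counts per peak are not known. The value of exactly 310 was shared by 9 limb and 10 glial peaks. Whether it is an upper limit of the score is not known, so peaks at 310 cannot be ordered.

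Satellite DNA consists of short units repeated head to tail. In the mouse, the A+T-rich major satellite fills the chromatin beside the centromeres and the minor satellite lies at the centromeres themselves, and only small parts of either are present in the assembled chromosomes. Genes for ribosomal RNA and the mitochondrial genome are present in many copies per cell, and the assembly holds few or 1 of these copies. *LncRNA-HIT* is a nuclear RNA transcribed beside *Hoxa13* in the limb mesenchyme.

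The sequences that define the repeat classes are shown first, all from build mm9 and read on the plus strand from 5′ to 3′. The largest class was a tandem repeat on chromosome 9. The limb peak chr9:3031821-3032578 begins with the following neighbouring units of 234 bp, in which capitals mark the 212 bases of 234 (90.6%) that are the same at the same place in both.

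Unit 1, chr9:3031821-3032054: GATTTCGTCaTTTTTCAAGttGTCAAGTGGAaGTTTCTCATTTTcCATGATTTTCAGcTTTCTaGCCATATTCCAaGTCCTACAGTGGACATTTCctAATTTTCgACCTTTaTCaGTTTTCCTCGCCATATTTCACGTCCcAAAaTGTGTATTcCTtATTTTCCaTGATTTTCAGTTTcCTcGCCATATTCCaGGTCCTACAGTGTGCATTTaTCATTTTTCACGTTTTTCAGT
Unit 2, chr9:3032055-3032288: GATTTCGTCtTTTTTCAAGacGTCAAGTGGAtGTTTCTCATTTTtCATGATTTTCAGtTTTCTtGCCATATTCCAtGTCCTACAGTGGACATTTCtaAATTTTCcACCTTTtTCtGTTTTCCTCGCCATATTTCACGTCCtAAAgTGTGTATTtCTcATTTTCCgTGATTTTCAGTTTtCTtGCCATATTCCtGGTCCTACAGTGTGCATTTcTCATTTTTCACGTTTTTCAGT

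Stretches of the same repeat were found in shared peaks far from this block. They are shown because each lies at its own position in the assembly, inside or near other genes. Capitals mark bases identical to the aligned chromosome 9 units, which amounted to 94.02% of the stretch in the predicted gene *Gm10801*, 93.2% of the stretch near *Gm5614*, 83.0% of that in *Litaf* and 88.9% of that in *Cdk5rap2*.

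Gm10801, chr2:98502389-98502622: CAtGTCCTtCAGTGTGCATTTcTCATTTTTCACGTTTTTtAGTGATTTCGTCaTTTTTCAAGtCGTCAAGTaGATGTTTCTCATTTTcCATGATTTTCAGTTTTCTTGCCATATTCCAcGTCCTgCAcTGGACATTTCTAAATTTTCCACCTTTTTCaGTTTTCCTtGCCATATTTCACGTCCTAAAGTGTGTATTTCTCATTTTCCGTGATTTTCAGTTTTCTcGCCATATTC
near Gm5614, chr9:35112801-35113034: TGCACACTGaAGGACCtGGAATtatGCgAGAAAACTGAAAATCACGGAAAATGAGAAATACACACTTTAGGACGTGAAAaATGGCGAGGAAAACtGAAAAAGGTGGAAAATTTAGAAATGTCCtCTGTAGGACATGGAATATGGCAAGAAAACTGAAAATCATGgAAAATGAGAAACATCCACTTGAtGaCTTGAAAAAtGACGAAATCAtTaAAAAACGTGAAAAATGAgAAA
Litaf intron, chr16:10975161-10975354: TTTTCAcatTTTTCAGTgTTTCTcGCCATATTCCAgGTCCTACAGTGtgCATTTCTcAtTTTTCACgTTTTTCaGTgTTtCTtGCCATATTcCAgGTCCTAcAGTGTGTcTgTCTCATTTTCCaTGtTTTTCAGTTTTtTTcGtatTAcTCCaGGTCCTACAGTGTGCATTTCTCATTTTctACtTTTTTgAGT
Cdk5rap2 intron, chr4:70039163-70039288: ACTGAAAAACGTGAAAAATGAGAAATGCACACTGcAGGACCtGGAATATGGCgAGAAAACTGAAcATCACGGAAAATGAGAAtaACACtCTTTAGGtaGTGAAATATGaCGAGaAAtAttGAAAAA

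Short tandem arrays were the second kind. The arrays in introns of *Kalrn*, *Adamts6* and *Tcte2* are given as examples, with the array in capitals.

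Kalrn intron, chr16:34083738-34083817: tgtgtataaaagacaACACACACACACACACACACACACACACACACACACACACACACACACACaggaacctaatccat
Adamts6 intron, chr13:105093498-105093571: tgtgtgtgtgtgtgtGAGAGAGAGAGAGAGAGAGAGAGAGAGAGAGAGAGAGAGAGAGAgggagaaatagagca
Tcte2 intron, chr17:13743511-13743575: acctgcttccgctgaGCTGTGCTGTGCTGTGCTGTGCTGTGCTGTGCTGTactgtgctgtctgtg

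The last sequences show opposite ends of the range. In the ribosomal DNA-like peak, the 120 bases richest in CpG held 22 of them, in capitals, and in the *Pde10a* intron no word of 24 bases occurred at a further place in the genome.

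rDNA-like peak, chr17:39982666-39982785: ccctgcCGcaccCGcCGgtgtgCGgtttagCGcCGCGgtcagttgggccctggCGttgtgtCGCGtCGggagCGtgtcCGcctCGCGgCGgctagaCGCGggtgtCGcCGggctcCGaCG
Pde10a intron, chr17:9158252-9158371: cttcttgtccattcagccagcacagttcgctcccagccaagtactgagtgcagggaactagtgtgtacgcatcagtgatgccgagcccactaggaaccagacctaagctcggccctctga

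The satellite class comprised 23 shared limb peaks and the 27 glial peaks they overlapped, defined by an alignment of at least 100 bp with at least 80% identity to the chromosome 9 block. Such alignments were found in 27 of all limb peaks (0.938%) and 34 of all glial peaks (1.16%), and 23 of the 27 and 27 of the 34 belonged to the shared set. The block sequences aligned to were those of its shared limb peaks, so these shares are partly set by the definition. Of the 23 limb peaks, 16 lay in the block chr9:2999821-3038402, which begins at the assembly gap of the centromeric end, and 7 lay elsewhere. All 16 overlapped the predicted long noncoding RNA *Gm16869* (chr9:3000282-3038313, minus strand), 14 of them lay wholly within it, and most also covered coding exons of predicted genes such as *Gm10722*, *Gm10717* and *Gm17535*. The block held 18 limb and 23 glial peaks in all, and only 2 of the limb peaks and 3 of the glial peaks had no partner in the other list.

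The strongest limb peak of the block, chr9:3025275-3028003 in *Gm10717*, had a limb −log10(p) of 310, and the higher of its 2 glial partners had 181. At chr9:3035496-3036778, at *Gm17535*, the values were 298 in the limb and 206 in the glial list. At chr9:2999821-3001652, at *Gm10722*, they were 271 and 204. These 3 peaks were higher in the limb list, but the neighbour chr9:3001921-3003227 was nearly even, with 234 and 230, and chr9:3015071-3016524 at *Gm10720* was lower in the limb, with 176 against 221. The weakest glial row of the whole glial list, with 5.82, overlapped a limb peak of 47.9 at chr9:3028572-3029002. Within the satellite class the order of the peaks was similar in both lists. The limb values had a median of 103 (range 19.4 to 310), the glial values a median of 104 (range 5.82 to 310), and Spearman's rank correlation over the 23 peaks was 0.84. These peaks share sequence, input libraries and mappability, so the coefficient is given as a description only.

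Self-comparison of these peaks showed the repeat unit directly. For the 11 peaks of the chromosome 9 block of at least 600 bp, bases 234 bp apart were identical at 74.0% of positions on average, and bases 58 bp apart at 56.9%, against a median of 31.2% over all offsets from 20 to 500 bp. The major satellite of the mouse has a unit of 234 bp. The same offset gave 25.5% in 10 peaks of chromosome Y and 25.6% in 7 peaks of the chromosome 11 segment, which were near their medians over all offsets of 26.6% and 25.5%. The 234 bp unit was visible in the chromosome 9 block and in neither of the other segments.

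**Figure D1:**
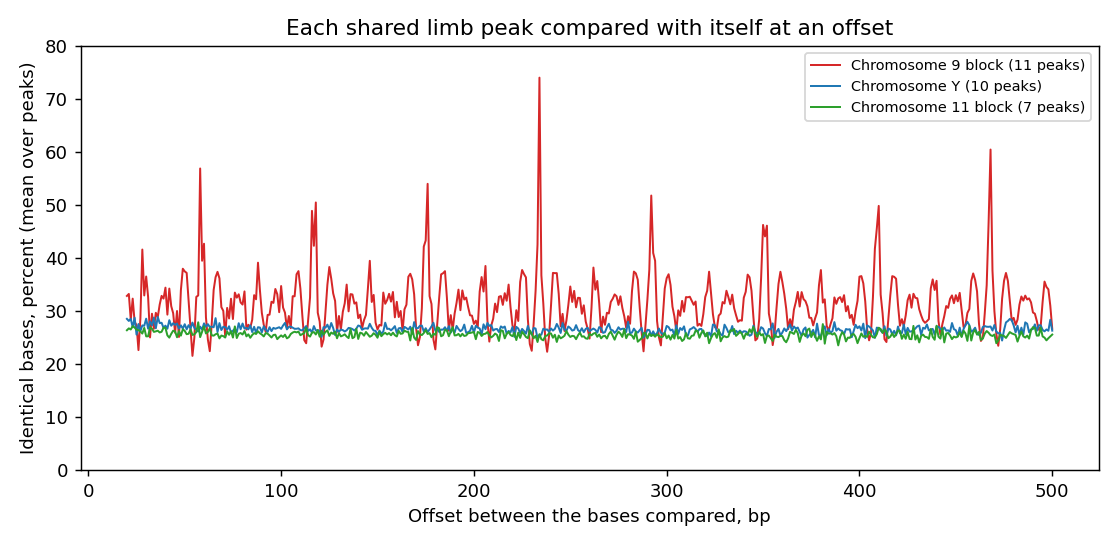
Percentage of identical bases (vertical axis) when each shared limb peak of at least 600 bp is compared with itself at offsets of 20 to 500 bp (horizontal axis), as the mean over 11 peaks of the chromosome 9 block (red), 10 peaks of chromosome Y (blue) and 7 peaks of the chromosome 11 block (green). The red line reaches 74.0% at 234 bp and 56.9% at 58 bp, while the other lines stay near 26.6% and 25.5% throughout.

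Outside the block, the strongest satellite peaks lay at chr2:98502221-98507653, a segment of 5433 bp with 4 limb and 4 glial peaks, all of them shared. The peak over a coding exon of *Gm10801*, chr2:98502221-98503328, had 310 in both lists, and so had chr2:98506196-98507653 over *Gm10800*, whose first and last bases were the same in both lists. The peak between them on the *Gm10801* side, chr2:98503771-98504400, had 137 in the limb and 146 in the glial list. The remaining peak of the segment, chr2:98505000-98505528, had 86.4 and 98.2 and did not align to the chromosome 9 block at the limit used. It matched itself best at an offset of 120 bp, with 62% identity. The minor satellite of the mouse has a unit of 120 bp, and peaks in an intron of *Chl1* (chr6:103598896-103599428, limb 120 and glial 121) and at chr4:64158846-64159278 (limb 73.2 and glial 8.97) also had 120 bp as their best offset. The identity at that offset was 40.4% at *Chl1* and 55.6% at the chromosome 4 peak, while the best offset of the median shared peak gave 33.3%. At *Chl1* the peak had the same first and last base in both lists.

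Single satellite peaks lay on chromosomes 4, 9, 12 and 16. The peak at chr9:35112621-35113303, 23201 bp from *Gm5614*, had 223 in the limb and 236 in the glial list. The peak chr12:3109773-3110274 had 77.6 and 149. The peak in an intron of *Litaf*, a regulator of lysosomal protein traffic, had 64.7 and 61.4, and that in an intron of *Cdk5rap2*, a centrosomal protein, had 49.6 and 89.5. These 4 peaks were less wholly satellite than those of the block, and the aligned part covered 30.3% of the *Cdk5rap2* peak and 47.6% of the *Litaf* peak, against 100% of most block peaks. When all 111 peaks were joined by alignments of at least 100 bp and 80% identity, 27 of them, the satellite peaks and those with the 120 bp offset among them, fell into 1 family, 5 formed a further family and 73 stood alone. The 5 were 4 peaks of the chromosome 11 segment and chrY:2858800-2860251, and the strongest of them by its lower value was chr11:3084171-3087249.

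A perfect array of at least 30 bp with a unit of up to 6 bases lay in 17 of the 111 shared limb peaks, against 7.26% of all limb peaks. Of these 17, 12 belonged to no other class, and 8 of the 12 are described singly. Their arrays are made of units of up to 5 bases. At *Kalrn*, a gene for a guanine nucleotide exchange factor, the array of AC was 50 bp long and the peak had 88.9 in the limb and 87.4 in the glial list, over exactly the same bases. At *Adamts6*, a metalloprotease gene, the array of GA was 44 bp long and the values were 50.01 and 49.7. At chr16:76045350-76045802, with 38 bp of GA, they were 76.7 and 73.3. These 3 pairs differed by less than 4 units between the lists. In an intron of *Lin52*, at chr12:85859421-85859852 with 50 bp of AC, the limb value was higher, 85.4 against 39.0, and at chr3:35579221-35580003, with 34 bp of GT, it was 99.3 against 45.6. At chr15:74916227-74917500, with 80 bp of CTTT, the glial value was higher, 243 against 57.8. Both peaks in an intron of *Tcte2*, a gene of the t-complex expressed in testis, held repeats of GCTGT or CTGTG. Their values were 112 in the limb and 187 in the glial list at chr17:13743396-13744303, with the same ends in both lists, and 237 and 310 at chr17:13744597-13746200. A related peak lay at chr17:13498725-13499252, with 73.9 and 146. Over all 12 short-array peaks, 11 pairs had both ends within 50 bp.

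**Figure D2:**
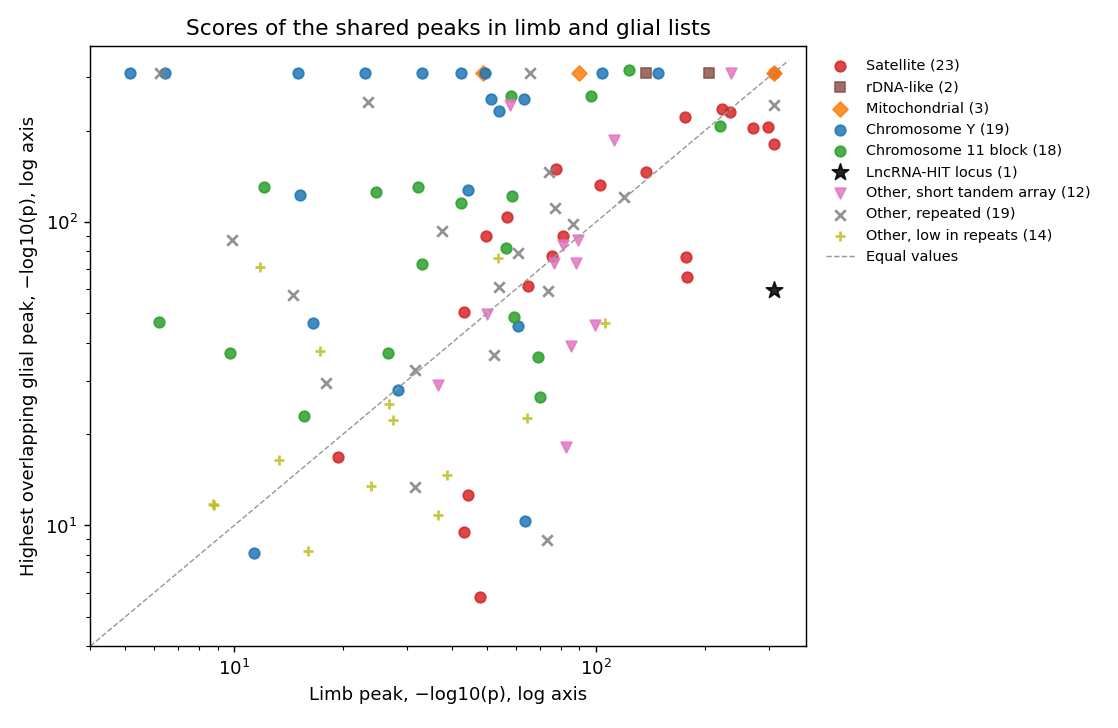
−log10(p) of each of the 111 shared limb peaks (horizontal, log axis) against that of the highest glial peak it overlapped (vertical, log axis), with 1 symbol per limb peak, coloured by class. Satellite peaks lie on both sides of the line of equal values (11 below it, 10 above it), 15 of 19 chromosome Y peaks lie above it, and the *LncRNA-HIT* locus lies at 310 in the limb and 59.6 in the glial list.

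The ribosomal DNA-like locus lay on chromosome 17. The limb peaks chr17:39980171-39981502 and chr17:39981703-39982998 had −log10(p) of 205 and 138, and both fell within 1 glial peak of 3782 bp, chr17:39979871-39983652, with 310. They lay 3546 and 2050 bp from *AY036118*, a pseudogene in the annotation used, which in the RefSeq annotation of a later build overlaps an 18S ribosomal RNA related sequence. The name used here rests on that neighbour alone, and no shared peak aligned to an annotated 5S or 5.8S ribosomal RNA gene. With 66.4% and 71.8% G+C, these peaks had the highest base composition of the shared set, whose median was 40.7%. Only 2.75% and 0.157% of their 24-base words were found more than once in the assembly.

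All 3 limb peaks on the mitochondrial chromosome were shared, as were 2 of the 3 glial peaks there. The limb peak chrM:10850-15674, over *mt-Nd5*, *mt-Nd6*, *mt-Cytb* and the end of *mt-Nd4*, which encode subunits of the respiratory chain, had 310 in both lists and was, with 4825 bp, the widest of the limb list. The limb peaks chrM:54-1676, over the ribosomal RNA genes *mt-Rnr1* and *mt-Rnr2*, and chrM:1823-4449, over *mt-Rnr2*, *mt-Nd1* and *mt-Nd2*, had 48.8 and 89.4. In the glial list 1 peak of 5351 bp with 310 spanned both. The limb peaks of this chromosome were thus almost wholly covered by glial peaks. Each list had 3 peaks here, covering 9075 bp in the limb list and 10832 bp in the glial list. No shared peak outside this chromosome aligned to the mitochondrial sequence.

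On chromosome Y, 19 of 21 limb peaks and 13 of 35 glial peaks were shared, and 18 of the 19 lay between 2779722 and 2899178. No gene body of the annotation lay within 25 kb of any of the 19. Their 24-base words were found more than once for 53.7 to 95.3% of words, with a median of 77.2%, and the number of copies of the median word in the genome was 72 for the median peak. The 19 limb peaks had a median width of 604 bp and a median −log10(p) of 42.2 (range 5.17 to 148). The 13 shared glial peaks, each counted once, had medians of 1481 bp and 127 (range 8.12 to 310). The highest glial partner had the higher value for 15 of the 19 limb peaks, and its median was 255, in which 3 glial peaks at 310 are counted 9 times. These 3 were 4055, 3983 and 2181 bp wide, and 8 of the 9 limb peaks lay wholly within them. Over all peaks of the segment, shared or not, the median was 42.2 for 19 limb peaks and 62.9 for 25 glial peaks. The strongest of the limb peaks, chrY:2858800-2860251 with 148, lay in 1 of these. The weakest peak of the whole limb list, chrY:2783472-2783851 with 5.17, lay in the glial peak chrY:2779996-2784050. The reverse was seen at chrY:2898746-2899178, with 63.7 in the limb and 10.3 in the glial list. Over the 19 peaks Spearman's rank correlation of the limb and glial values was -0.05. The sex of the pooled limb buds and of the glial cell line is not given in the sources used here, and its part in these values was not tested.

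The chromosome 11 segment, chr11:3032871-3096653, held 18 shared limb peaks. It lies 32.9 to 96.2 kb from the assembly gap at the centromeric end, and 16 of the 18 overlapped *Sfi1* (chr11:3031853-3093466, minus strand), which encodes a centrin-binding protein of the centrosome. The peaks at the far end lay in *Drg1*, a GTP-binding protein. Coding exons were touched by 7 of the 18, and the others lay in introns or noncoding exons. This segment had less repeated sequence than the satellite block, but more than the whole limb list. The median share of words found more than once was 5.97%, against 0.988% in the whole limb list. Of the 18 peaks, 11 were under 10% and 7 had at least 10%, against 26.1% of the whole limb list. Copies missing from the assembly are not counted. It also held 11 limb peaks and 13 glial peaks without a partner, so that 18 of 29 limb rows and 16 of 29 glial rows were shared.

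The glial peak with the highest listed value, chr11:3077953-3080003 with a −log10(p) of 317, overlapped a limb peak of 123 in *Sfi1*. Another 10 glial peaks all had exactly 310, so whether any of them was stronger is not known. At chr11:3065321-3066174 the limb value was 96.9 and the glial value 261. At chr11:3084171-3087249 the values were closer, with 220 in the limb and 208 in the glial list. The highest glial partner had the higher value for 14 of the 18 limb peaks. The medians were 49.2 for the limb peaks and 99.1 for their highest glial partners, with ranges of 6.22 to 220 and 22.97 to 317, and the 16 shared glial peaks, each counted once, had a median of 77.4. Over all 29 limb and 29 glial peaks of the segment, shared or not, the medians were nearly equal, at 51.5 in both lists. The exceptions included coding exon peaks at chr11:3042950-3043978, with 69.0 in the limb and 35.96 in the glial list, and chr11:3045696-3046751, with 70.0 and 26.4. No pair of this segment, and none on chromosome Y, had both ends within 50 bp, whereas 14 of the 23 satellite pairs did.

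**Figure D3:**
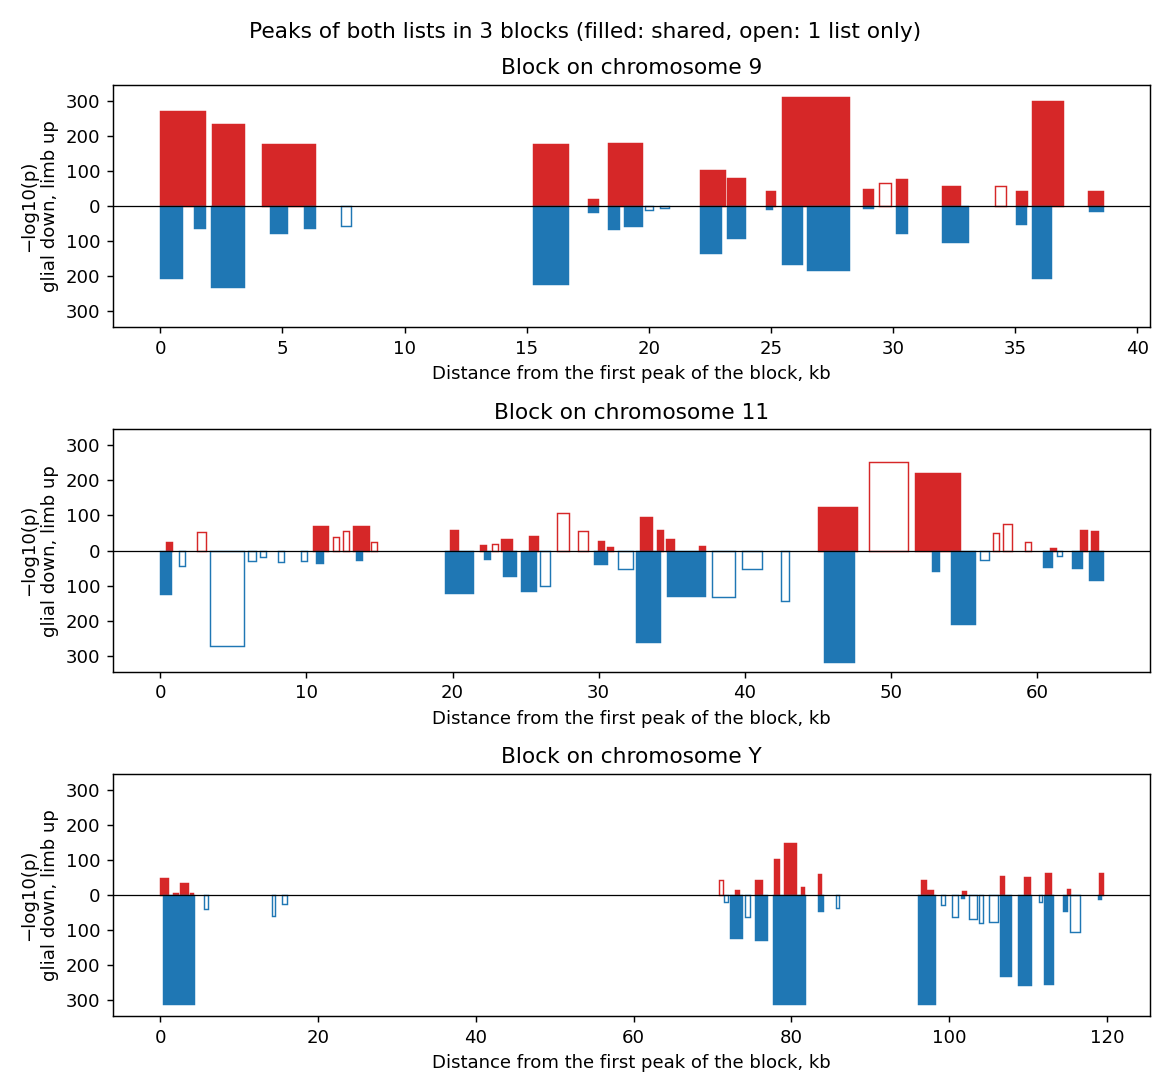
Limb peaks (red, upward) and glial peaks (blue, downward) in the blocks on chromosomes 9, 11 and Y, drawn to scale by their distance from the first peak of the block in kb, with bar height giving −log10(p), filled bars for shared peaks and open bars for peaks of 1 list. On chromosome 9, 16 of 18 limb and 20 of 23 glial bars are filled, on chromosome 11 18 of 29 and 16 of 29, and on chromosome Y 18 of 19 and 12 of 25.

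The locus of *LncRNA-HIT* was shared as well. The limb peak chr6:52206123-52207602 had 310 and held sites of all 25 probes, and the glial peak chr6:52206196-52207203 had 59.6 and rank 585 in its list. Among the shared peaks it was the only one to hold a complete probe site of 20 bases. In every other shared limb peak the longest run of bases in common with a probe was 12 or fewer. A run of at least 12 was found in 8 of the 111 shared limb peaks, this one included, and in 232 of all 2880 limb peaks. Only perfect runs were counted. The limb peak of the locus lay 91 bp from *Hoxa13*, which patterns the distal limb, and only 1.92% of its 24-base words were repeated. Of the shared pairs at 310 in the limb, it had the lowest glial value.

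Of the remaining peaks, 19 had at least 10% repeated words without meeting a definition above. The strongest was in an intron of the unconventional myosin gene *Myo16*, chr8:10598922-10600278, with 310 in the limb and 242 in the glial list and 16.4% repeated words. At chr10:21861946-21862978, 1250 bp from *E030030I06Rik*, 1 glial peak at 310 held limb peaks of 65.6 and 6.23. The latter was among the lowest values of the limb list. In an intron of *Smo*, the transducer of Hedgehog signals, at chr6:29698554-29699101, the limb value was 23.4 and the glial value 249, with 65.1% repeated words. The *Smo* and *Arid5b* peaks were picked after their values were seen. In an intron of *Arid5b*, a gene for a DNA-binding regulator, at chr10:67579724-67580228, the values were 76.9 and 111. In an intron of *Nrg3*, a ligand of ErbB receptors, at chr14:39422748-39423128, the limb value was 9.86 and the glial value 87.3, and the median word of the peak had 10222 copies in the genome.

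The other 14 peaks had under 10% repeated words and belonged to no class, and 6 of them had no repeated word at all. They were weak, with median values of 25.4 in the limb and 19.3 in the glial list, against whole-list medians of 34.9 and 32.5. Of these pairs, 10 fell short of the threshold of 5.9e-57, which the study applied to its limb peaks, in both lists. Most peaks of either list did so too, since 26.9% of the limb list and 24% of the glial list reached it. The strongest by the lower of its values was in an intron of the phosphodiesterase gene *Pde10a*, chr17:9158096-9158528, with 53.6 in the limb and 76.2 in the glial list over exactly the same bases. At chr10:57162371-57163050, more than 25 kb from any gene, the values were 106 and 46.5. At chr6:38580323-38580928, over a coding exon of *Klrg2*, they were 64.4 and 22.6. The others with a gene were in *Ank3*, *Rps6ka5*, *Map1lc3b*, *Irf7*, *Th* and *Pias1*, with limb values of 8.72 to 38.8. Among these, *Irf7* encodes a transcription factor of the interferon response and *Th* the rate-limiting enzyme of catecholamine synthesis, and the peaks overlapped coding exons of both.

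**Figure D4:**
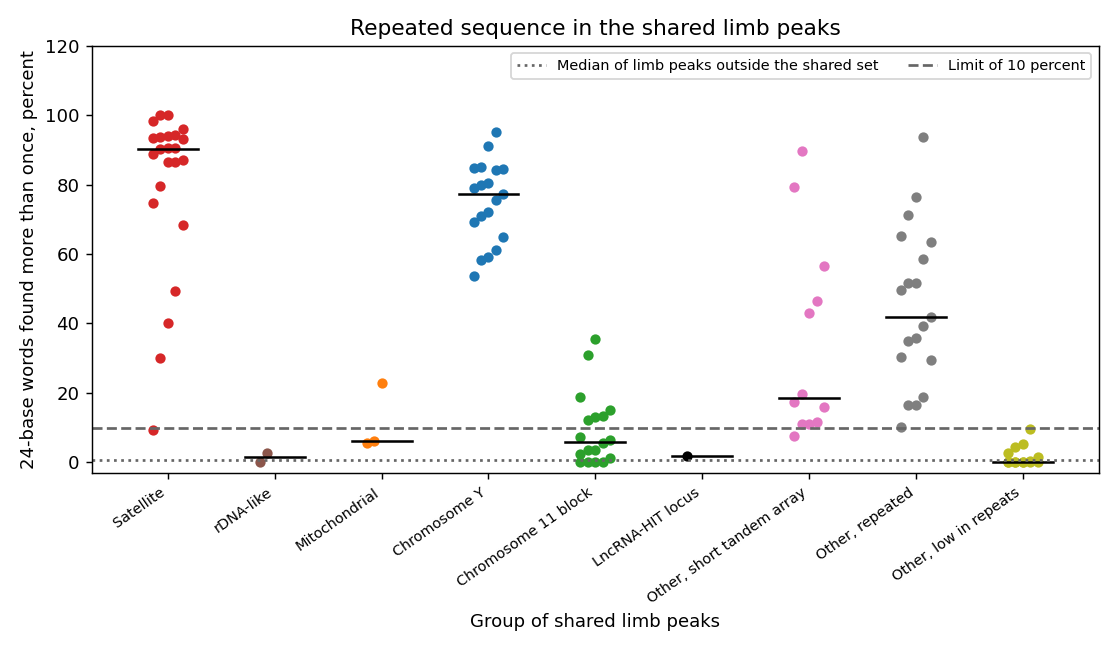
Percentage of 24-base words found more than once in the genome (vertical axis) for each of the 111 shared limb peaks, by class (horizontal axis), with black bars at the class medians, a dashed line at 10% and a dotted line at 0.737%, the median of limb peaks outside the shared set. Satellite peaks have a median of 90.2% and chromosome Y peaks 77.2%, while the chromosome 11 block has 5.97%.

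At least 10% repeated words were found in 79 of 111 shared limb peaks, against 26.1% of the whole limb list, and in 79 of 104 shared glial peaks, against 30.4% of the whole glial list. The median share of repeated words was 39.2% in the shared limb peaks and 0.988% in the whole limb list. A distance of at most 100 kb from an assembly gap of at least 50 kb was found for 56 of the 111, against 3.23% of all limb peaks. These 56 were mostly the peaks of the blocks on chromosomes 9, 11 and Y. A gene body within 25 kb was found for 77 of the 111, close to the 68.9% of the whole list. Inside a gene body lay 64 of the 111, against 1396 of 2880 in the whole limb list, and 47 lay in no gene body. Of those inside, 29 touched a coding exon, 4 a noncoding exon only and 31 introns only. Most of the 29 lay in predicted genes at satellite peaks or in the chromosome 11 segment. This split was not made for the whole list.

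The shared peaks were also stronger and wider than the lists they came from. A wider peak meets a 1 bp overlap more readily, so the rule itself favours width, and how far it did so was not tested. Their median −log10(p) was 56.6 in the limb, against 34.9 in the whole limb list, and 74.8 in the glial list, against 32.5. At the study threshold stood 56 of the 111 limb peaks and 66 of the 104 glial peaks, where the whole lists had 26.9% and 24%. The study judged by eye which of its limb peaks at this threshold were also present in the glial assays. It excluded more than these 56, so its rule was unlike the overlap of called peaks used here. Of the 9 limb peaks at 310, 6 were shared, and all 11 glial peaks of 310 or more were. Of the 50 highest limb peaks 20 were shared, and of the 50 highest glial peaks 34. The median width was 505 bp in the limb, against 408 bp for the list, and 545 bp in the glial list, against 407 bp. Peaks were joined where they lay within 10 kb of each other, which gave 56 blocks, and 7 blocks of at least 3 peaks held 59 of the 111. Neighbouring peaks of a block, and peaks of a sequence family, are not independent of each other.

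**Figure D5:**
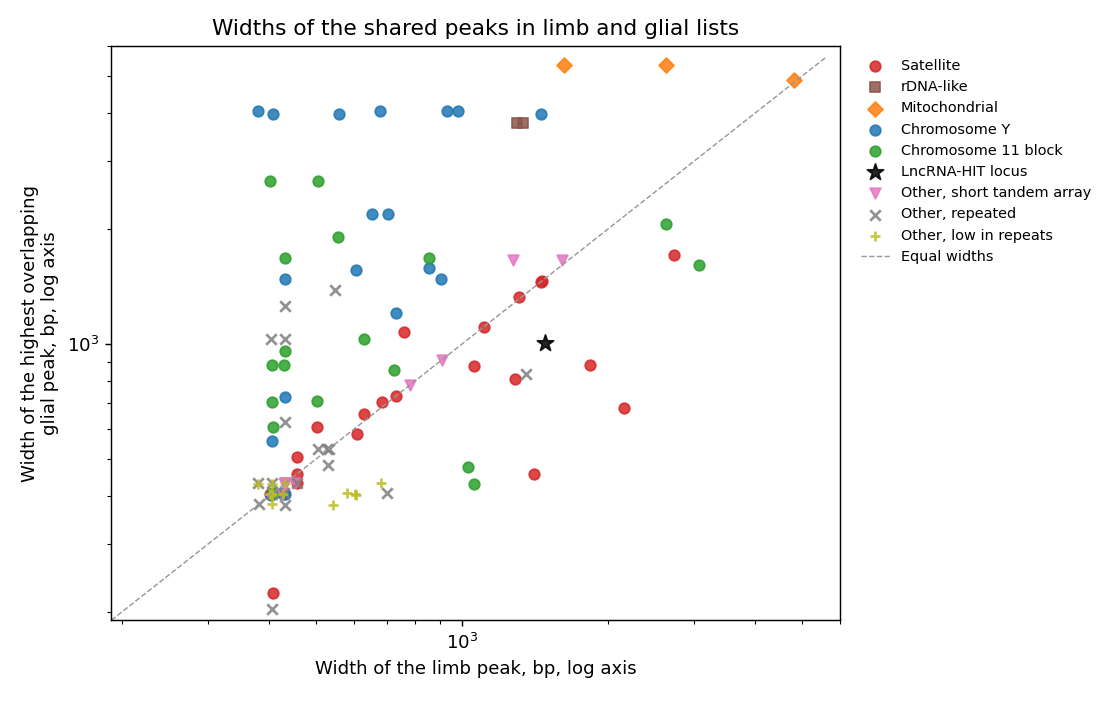
Width of each of the 111 shared limb peaks in bp (horizontal, log axis) against the width of the highest glial peak it overlapped (vertical, log axis), coloured by class. Mitochondrial, ribosomal DNA-like and most chromosome Y peaks lie above the line of equal widths, and 11 peaks lie on it.

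Over the 116 pairs, limb and glial −log10(p) had a Spearman's rank correlation of 0.35 and a Pearson's r of 0.34, as a description over pairs that share position, mappability and, in blocks, neighbours. Against the highest partner, the glial value was the higher for 67 limb peaks, the limb value for 41, and 3 were equal at 310. Of the 104 glial peaks, 9 overlapped more than 1 limb peak and are counted more than once here. The values of the lists also come from separate libraries and inputs, so they are not on a common scale. The median overlap was 433 bp, and the median limb peak was covered to 95.7% by its partner. Both ends lay within 50 bp of each other in 34 of 111 pairs and within 10 bp in 15, and 45 limb peaks lay wholly within their glial partner. At the edge of the rule, the smallest overlaps were 8, 33 and 53 bp, at chr11:3063071-3063476 (limb 9.74), chr12:75783021-75783451 (54.1) and chr12:15972546-15972951 (31.6). The nearest limb peaks left out were 43, 118 and 167 bp from a glial peak, at chrY:2850547-2851077 (41.9), chr14:64292021-64292403 (11.97) and chr11:3055221-3055603 (18.8).

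The last comparison was with genes of the limb and glial lineages. Within 25 kb of a shared peak lay 0.351% of all annotated gene symbols, against 8.68% within 25 kb of any limb peak and 7.69% of any glial peak. Of 32 genes of chondrogenesis and limb patterning, *Hoxa10*, *Hoxa11* and *Hoxa13* lay within 25 kb of a shared peak, in each case the 1 peak of the *LncRNA-HIT* locus, while 9 of the 32 lay near any limb peak and 14 near any glial peak. Both counts include these neighbouring *Hoxa* genes, and the glial count also the neighbours *Hoxd9* to *Hoxd13*, so the genes counted are not separate loci. Of 15 genes of glial cells, such as *Gfap*, *Olig2* and *Sox10*, 0 lay near a shared peak, 1 near any limb peak (*Slc1a2*) and 0 near any glial peak.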

How the data were processed

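Per the labels and the methods of the study, the authors mapped the reads of 6 ChIRP and input libraries uniquely to mm9 with Bowtie 0.12.9, normalized them to total read count, merged odd and even tracks by the lower value at each position and called peaks against input with MACS, whose version is not given in the sources used here. For its own limb peaks the study then dropped, by eye in a genome browser, those also seen in the glial control. That filter was not applied here. The values used are the deposited score of each peak, which is 10 times −log10(p), and it was divided by 10. Read depth per peak is not known. Mapping that keeps only uniquely placed reads limits what can be seen in repeats, and the assembly holds fewer copies of satellite, ribosomal and mitochondrial DNA than cells do. The effect of either on these peaks was not tested.

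An overlap of 1 bp or more made a limb peak shared, and each was set beside the highest glial peak it overlapped. Both strands of the NCBIM37 (mm9) assembly were searched for each 24-base word of a peak. Peaks were aligned with blastn (BLAST+ 2.17.0) and joined into families at 80% identity over 100 bp. A peak was compared with itself at offsets of 20 to 500 bp for tandem units. Genes were taken from the GENCODE vM1 annotation, with a limit of 25 kb, and the identity of the ribosomal DNA-like locus from a RefSeq gene table of GRCm38.p6, used for names only. No repeat annotation was used. Of the short tandem arrays, 1 kind is counted but not reported singly here.

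The members, the gene lists and the classes were chosen with earlier results of these data known, so nothing here is independent support. The regions named were those with the highest limb or glial values, the widest, those on the mitochondrial chromosome or over the probe sites, blocks of at least 3 peaks, the strongest of each family, the strongest low in repeats and those with the largest rank differences. Others were picked after their values were seen. Other definitions of overlap, score limits, word lengths, gene distances, joining distances and alignment limits were tried. The procedures were checked on simulated sequences and positions. The work used samtools 1.23.1, matplotlib 3.10.9, numba 0.67.0, pandas 2.3.3, scipy 1.17.1, numpy 2.4.6 and Python 3.11.15.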

Additional observations from a re-analysis of the deposited data

How the results depend on the processing

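Each tissue has 1 list, so settings were compared without a replicate spread. The shared set shrank when more than a 1 bp overlap was asked for. Overlap of at least 50% of both peaks left 65 limb and 65 glial peaks, with median −log10(p) of 73.5 and 76.2 and a rank correlation of 0.66. Centres at most 200 bp apart gave 67 and 67, with medians of 70.0 and 73.3 and 0.66. With at least 50% of the narrower peak, the medians were 60.9 and 83.1 and the correlation 0.26, and with a gap of up to 500 bp allowed they were 54.8 and 66.1 and 0.29. At p of 5.9e-57 or smaller in both lists, there were 45 limb and 47 glial peaks, with medians of 104 and 146 and 0.19, and at 1e-100 there were 21 and 20, with 220 and 226 and 0.14. Without chromosome Y and the mitochondrial chromosome, the medians were 59.2 and 72.5 and the correlation 0.52. It was 0.29 over the 108 pairs left without the limb peaks at 310 and the glial peak at 317. Other pairs with a glial value of 310 stayed in. For pairs of 1 limb and 1 glial peak the correlation was 0.55. The rank correlation was positive in every setting, but its size depended on the definition of a pair and on whether chromosome Y and the mitochondrial chromosome, left out together, were included. At least 50% repeated words were found in 49 of the 111 peaks, while the counts with other word lengths and 25% stayed within 1.5 times that at 10%. With 18-base words, however, 110 of the 111 counted as repeated, so that length set almost no peak apart. Whole-list counts at these settings are not given. The counts for genes, blocks and families also stayed within 1.5 times under the alternatives run. No paired analysis was possible because the files hold 1 merged list per tissue and no test was made. The unknown number of reads behind a peak, and the value of 310 shared by the highest peaks, limit any ordering.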

Other observations

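Peaks of 1 list only also carried the repeats described above. Of 7 glial peaks with satellite alignments outside the shared set, 3 lay in the chromosome 9 block. The others were at chr12:68160221-68160701, with −log10(p) of 48.0 and 99.4% of the peak aligned, at chr12:75904749-75905475, with 21.5 and 89.3%, at chr11:3000246-3000678, with 66.2 and 56.8%, and at chr5:115372321-115372574, with 9.21 and 47.6%. Of 4 such limb peaks, 2 lay in the chromosome 9 block, and the others were at chr19:23431748-23432177, with 55.3 and 39.5%, and at chr13:77578023-77578452, with 14.5 and 35.8%. The glial peak chr1:24619396-24619624, with 9.34, aligned to mitochondrial DNA over its whole length and had no limb partner. The third glial peak on the mitochondrial chromosome, chrM:5854-6452, had 20.003.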
